A study of Sus scrofa and Rattus norvegicus with 8 samples.

Results

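Genes that bring fatty acids into fat cells and carry them inside were read in the backfat of 6 pigs by RNA-seq. The list holds 10 genes, chosen by name: the lipoprotein lipase system (LPL, GPIHBP1, LMF1), the receptor VLDLR, the transporter CD36, the fatty acid transport proteins SLC27A1 and SLC27A4, and the fatty acid binding proteins FABP3, FABP4 and FABP5. Of these, 9 have a named Ensembl ID in the pig table, out of 14844 named nuclear genes and 25880 gene IDs in all. CD36 is not analysed here, because no ID in the name table carries its symbol. The 6 libraries are of upper-layer backfat from female Bama pigs aged 2 years, and there is no treatment and no second group of pigs. Per the methods of the study, the tissue was taken after an overnight fast. The labels give 6 replicates, called pigs 1 to 6 here after their replicate numbers, and do not say how the animals are related, so a p-value below measures only the spread between these samples. The 2 rat libraries of the series are not used here.

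In fat, triglyceride arrives in the blood inside lipoprotein particles. Lipoprotein lipase, which fat cells make and secrete, splits it at the vessel wall, and the freed fatty acids enter the cell through membrane transporters, are bound by small cytosolic proteins and are joined to coenzyme A before storage. The lipase needs LMF1 to fold in the endoplasmic reticulum and GPIHBP1 to be carried across the capillary endothelium and held there.

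Levels are given in TPM (a share of transcripts, corrected for transcript length). TPM as deposited sum to 1000000 over all gene IDs of a library, and rescaled TPM sum to 1000000 over its named nuclear genes. Named nuclear genes held 24.1 to 26.3% of the deposited TPM in pigs 1, 2, 3 and 6 but 3.34% in pig 4 and 4.73% in pig 5, so a deposited TPM of any named gene in pigs 4 and 5 is lowered by this make-up. The values do not show how many reads stand behind them. Adipocyte markers were present in every library, with 7 of 8 listed markers having a value and all 7 detected in all 6 pigs. Their summed level was 6400 to 9662 rescaled TPM. Endothelial markers (8 of 10 with a value, summed 720 to 1609 rescaled TPM) and macrophage markers (9 of 10, summed 383 to 889 rescaled TPM) were also detected throughout. None of the 5 skeletal muscle markers with a value was detected in all 6 pigs, and the highest value of any of them was 6.36 rescaled TPM. Detection was judged on deposited TPM, which is a higher bar in pigs 4 and 5. Of 4 keratinocyte markers with a value, 1 was detected in all 6 pigs, and they summed to 16.7 to 38.0 rescaled TPM. Most of this sum was DSP, the marker detected throughout, at 15.3 to 37.1 rescaled TPM. The other keratinocyte markers had means of 0.0582 to 0.979 rescaled TPM. In such bulk samples, fewer cells of a type and less RNA per cell cannot be told apart.

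Each of the 9 members was detected, at over 0.1 TPM as deposited, in all 6 pigs. The same held for 67.2% of named nuclear genes. At over 1 TPM as deposited, 6 members passed in all 6 pigs, where 30.9% of named nuclear genes did. LMF1 missed it in pig 4 only, and SLC27A1 and SLC27A4 missed it in pigs 4 and 5. SLC27A1 was close to the detection limit there, at 0.103 TPM in pig 4 and 0.110 TPM in pig 5.

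The members spanned a wide range of levels. Together they held 2.19% ± 0.735 (SD, n = 6) of the named nuclear TPM, from 1.32% in pig 1 to 3.20% in pig 5. FABP4 alone made up 76.7 to 90.3% of that share. Without FABP4, the other 8 members held 0.323% ± 0.0523 (SD, n = 6). The order of means in rescaled TPM was FABP4, LPL, FABP5, FABP3, VLDLR, GPIHBP1, LMF1, SLC27A4 and SLC27A1. A fold of one gene over another within a library is the same in deposited and in rescaled TPM, though not after quantile normalization, so each neighbouring pair in this order was compared within libraries. By an exact two-sided sign-flip permutation test on log2(rescaled TPM + 0.1), 7 of 8 pairs differed, each with the same gene higher in 6 of 6 pigs (p = 0.03125, the smallest that 6 libraries allow, and 0.0357 after Benjamini-Hochberg adjustment over the 8 pairs). VLDLR and GPIHBP1 did not differ beyond their spread, with a mean difference of 0.28 ± 0.31 (SD, n = 6) on the log2 scale, VLDLR higher in 4 of 6 pigs and exact p = 0.125 (also 0.125 adjusted).

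**Figure D1:**
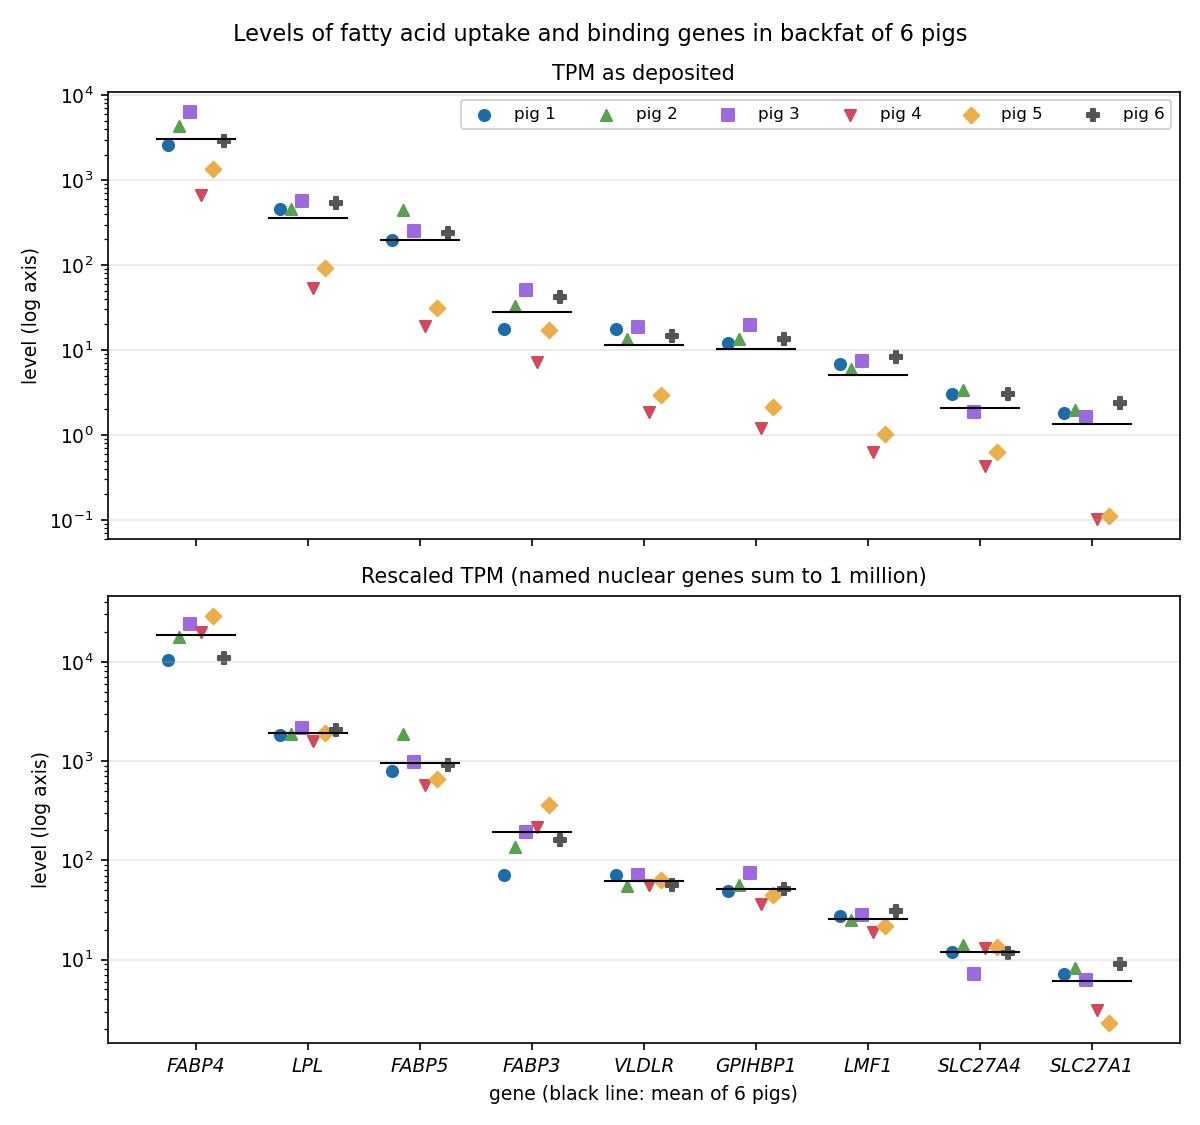
Level of each of the 9 genes (x axis, ordered by mean) in each of 6 pigs (points) on a log axis, as deposited TPM above and as rescaled TPM below, with black lines for the mean of 6 pigs. In deposited TPM, pigs 4 and 5 lie lowest for all 9 genes, and after rescaling LPL and VLDLR draw together while FABP3, FABP5 and SLC27A1 stay spread.

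LPL (ENSSSCG00000040631; chr14:4104761-4134964, plus strand, 10 exons in its longest RefSeq transcript) encodes the lipase itself. Positions here and below are those of RefSeq on Sscrofa11.1. Its levels were 1843, 1876, 2169, 1611, 1938 and 2067 rescaled TPM in pigs 1 to 6. The lowest, in pig 4, and the highest, in pig 3, differed by only 1.35-fold. The mean was 1917 ± 194 rescaled TPM (SD, n = 6), the rank 43 of 14844 named nuclear genes, and 31 to 56 in single pigs. Its coefficient of variation (CV, the SD over the mean) was 0.101, and 5.08% of the 8866 named nuclear genes with a mean of at least 10 rescaled TPM had a lower one. In deposited TPM the same gene ranged from 53.8 in pig 4 and 91.7 in pig 5 to 452 to 568 in the other 4 pigs, with a CV of 0.632, and its CV was 0.211 after median-centring and 0.203 after quantile normalization, so the narrow range is that of rescaled TPM. Without pigs 4 and 5 the mean was 1989 ± 156 rescaled TPM (SD, n = 4). LPL was below FABP4 in each library, by 3.19 ± 0.62 on the log2 scale (SD, n = 6), and FABP4 to LPL ratios lay between 5.24 in pig 6 and 14.9 in pig 5.

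GPIHBP1 (ENSSSCG00000034689; chr4:1253401-1256921, minus strand, 5 exons), the endothelial anchor of the lipase, had 48.8, 56.4, 74.4, 36.1, 44.6 and 51.2 rescaled TPM in pigs 1 to 6. Pig 3 was highest, and pigs 4 and 5 were below the other 4. The mean was 51.9 ± 13 rescaled TPM (SD, n = 6), higher than 75.2% of named nuclear genes, and 57.7 ± 11.6 (SD, n = 4) without pigs 4 and 5. LPL exceeded GPIHBP1 by 29.1-fold in pig 3 to 44.6-fold in pig 4, with a median of 39.1-fold, a spread of 1.53-fold over the 6 pigs. Against CDH5, an endothelial junction gene, GPIHBP1 varied more, from 0.249 of its TPM in pig 2 to 0.730 in pig 5.

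LMF1 (ENSSSCG00000008009; chr3:40841242-40929163, plus strand, 12 exons), the folding factor of the lipase, had 27.6, 25, 28, 19.0, 21.6 and 31.1 rescaled TPM in pigs 1 to 6, again with pigs 4 and 5 below the others. Its mean was 25.4 ± 4.48 rescaled TPM (SD, n = 6), or 27.9 ± 2.49 (SD, n = 4) without these pigs, and it was lower than GPIHBP1 in 6 of 6 pigs by 1.01 ± 0.25 on the log2 scale (SD, n = 6). The LPL to LMF1 ratio stayed between 66.5 and 89.7, a spread of 1.35-fold. The level of LMF1 is uncertain, since 15.2% of the 31-base words of its RefSeq transcripts also occur in LOC106509720, another annotated gene. Words were matched in either orientation, and the sources used here do not state how strand was used in the quantification. Of the other members, LPL shared 3.91% of its words with other genes, SLC27A4 0.382% and SLC27A1 0.132%, and FABP3, FABP4, FABP5, GPIHBP1 and VLDLR shared none.

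VLDLR (ENSSSCG00000005229; chr1:219178501-219210332, minus strand, 19 exons), a receptor that takes up triglyceride-rich particles, had 70.8, 55.3, 71.4, 56.0, 63.1 and 55.9 rescaled TPM in pigs 1 to 6. Pigs 1 and 3 were highest, and the whole range was 1.29-fold, the narrowest of the 9 members in rescaled TPM. The mean was 62.1 ± 7.57 rescaled TPM (SD, n = 6) with a CV of 0.122, and 8.65% of the 8866 genes had a lower CV. After median-centring the CV of VLDLR was 0.241, with levels of 46.3 to 85.3, and LMF1 had the lowest CV of the members, at 0.118.

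FABP4 (ENSSSCG00000040681; chr4:55096400-55101209, plus strand, 4 exons), the binding protein typical of adipocytes, had 10370, 17943, 24010, 20000, 28926 and 10827 rescaled TPM in pigs 1 to 6. Pigs 1 and 6 formed the low end and pig 5 the high end, 2.79-fold apart. Its mean of 18679 ± 7299 rescaled TPM (SD, n = 6) was the highest of all 14844 named nuclear genes, and in single pigs it ranked between 1 and 5. Without pigs 4 and 5 the mean was 15787 ± 6486 rescaled TPM (SD, n = 4). In deposited TPM the order was another one, with pig 4 lowest at 668 TPM and pig 3 highest at 6285 TPM. Against ADIPOQ, the adipocyte hormone adiponectin, FABP4 had 2.77 times the TPM in pig 1 and 10.7 times in pig 5, so its spread was also present relative to another gene of fat cells, 3.87-fold over the 6 pigs, where LPL against ADIPOQ spread 1.65-fold.

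FABP5 (ENSSSCG00000006153; chr4:55277831-55282585, minus strand, 4 exons), the epidermal form, which endothelial cells and macrophages also express, had 794, 1868, 971, 577, 666 and 905 rescaled TPM in pigs 1 to 6. Pig 2 stood above the other 5, and pigs 4 and 5 were lowest. The mean was 964 ± 467 rescaled TPM (SD, n = 6) and the CV 0.484, above that of 83.4% of the 8866 genes. Without pigs 4 and 5 the mean was 1135 ± 495 rescaled TPM (SD, n = 4). In pig 2 FABP5 reached the level of LPL, with a difference of 0.0060 on the log2 scale, whereas LPL was higher by 1.16 to 1.54 in the other 5. The summed endothelial markers were also highest in pig 2, at 1609 rescaled TPM against 720 to 1340 in the others, and 7 of 8 endothelial markers had their highest value there, where 27.0% of 12130 named nuclear genes with a mean of at least 1 rescaled TPM did. Macrophage markers summed to 723 and adipocyte markers to 7753 rescaled TPM in pig 2, each inside the range of the other pigs. The part of these cells in the FABP5 level was not tested. On the chromosome FABP5 lies 176621 bases from FABP4, with the gene of another binding protein of the family, PMP2, in between.

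FABP3 (ENSSSCG00000036883; chr6:87943003-87950708, minus strand, 4 exons), the heart and muscle form, had 71.7, 135, 194, 219, 363 and 161 rescaled TPM in pigs 1 to 6. Pig 1 was lowest and pig 5 highest, 5.06-fold apart, the widest range of the 9 members in rescaled TPM, and pigs 4 and 5 lay above the other 4. The mean was 191 ± 98.5 rescaled TPM (SD, n = 6), and 141 ± 51.9 (SD, n = 4) without pigs 4 and 5. The 5 of 10 muscle markers with a value summed to 3.15 rescaled TPM in pig 4 and 2.25 in pig 5, beside 3.38 to 13.5 in the other pigs. Each was under 0.1 TPM as deposited in pigs 4 and 5, where that threshold is a higher bar. Rescaling multiplies a deposited TPM by 29.9 in pig 4 and 21.1 in pig 5, but by 3.80 to 4.15 in the others. The part of muscle in the FABP3 level was not tested.

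The 3 binding proteins were next read as parts of their own sum, which is the same in deposited and in rescaled TPM. FABP4 was 90.0 to 96.6% of it, FABP5 2.22 to 9.37% and FABP3 0.638 to 1.36%. The FABP4 to FABP5 ratio was 13.1, 9.60, 24.7, 34.7, 43.4 and 12 in pigs 1 to 6, a 4.52-fold range in which pigs 1, 2 and 6 were low. The FABP4 to FABP3 ratio was 145, 132, 124, 91.4, 79.7 and 67.1, a narrower 2.16-fold range. FABP5 to FABP3 spread most, from 1.84 in pig 5 to 13.8 in pig 2.

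**Figure D2:**
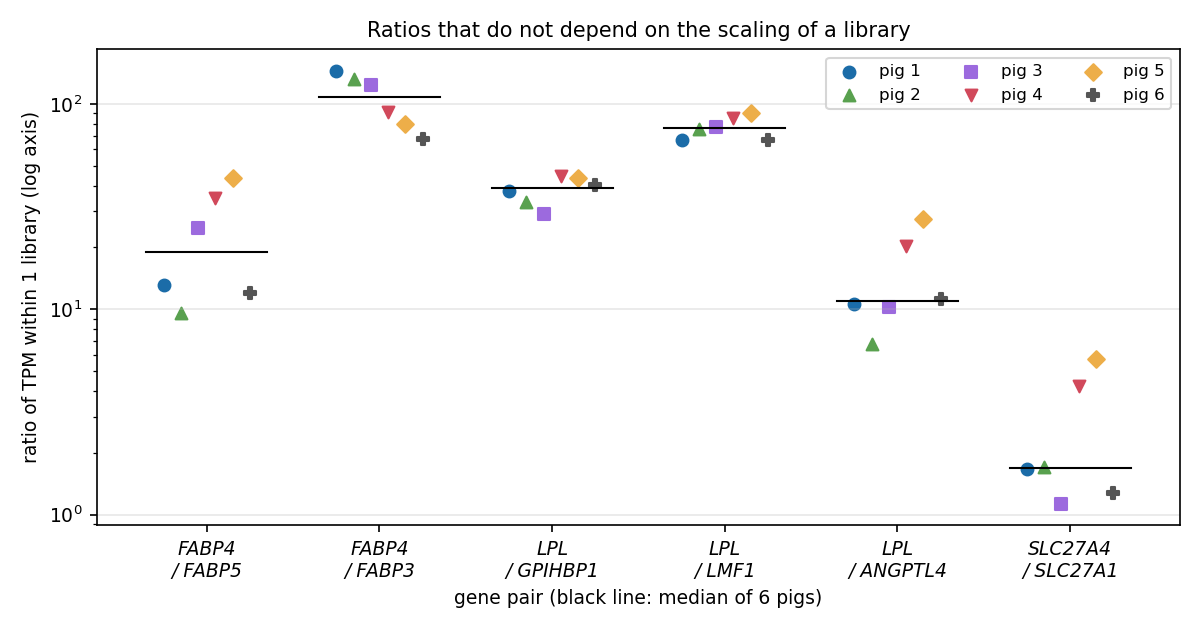
Ratio of deposited TPM within a library (y axis, log) for 6 gene pairs (x axis) in each of 6 pigs (points), with black lines for the median. LPL to GPIHBP1 and LPL to LMF1 stay within 1.53-fold and 1.35-fold, while FABP4 to FABP5 and SLC27A4 to SLC27A1 spread 4.52-fold and 5.05-fold.

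The fatty acid transport proteins, which couple uptake to coenzyme A joining, were the least abundant members. SLC27A4 (ENSSSCG00000005648; chr1:268773792-268788208, plus strand, 12 exons) had 12.1, 14, 7.10, 13, 13.3 and 11.6 rescaled TPM in pigs 1 to 6. Pig 3 alone was low, and the other 5 were within 11.6 to 14. The mean was 11.8 ± 2.47 rescaled TPM (SD, n = 6). SLC27A1 (ENSSSCG00000013879; chr2:60203374-60235689, minus strand, 12 exons) had 7.23, 8.26, 6.29, 3.08, 2.32 and 9.12 rescaled TPM in pigs 1 to 6, with a mean of 6.05 ± 2.77 (SD, n = 6). Pigs 4 and 5 were well below the other 4, and its mean without them was 7.73 ± 1.23 rescaled TPM (SD, n = 4). SLC27A4 exceeded SLC27A1 in 6 of 6 pigs by 1.08 ± 0.94 on the log2 scale (SD, n = 6), but by 1.13 to 1.70-fold in pigs 1, 2, 3 and 6 against 4.22-fold in pig 4 and 5.70-fold in pig 5. The ratios in pigs 4 and 5 rest on SLC27A1 at 0.103 and 0.110 TPM as deposited, close to the detection limit of 0.1 TPM.

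**Figure D3:**
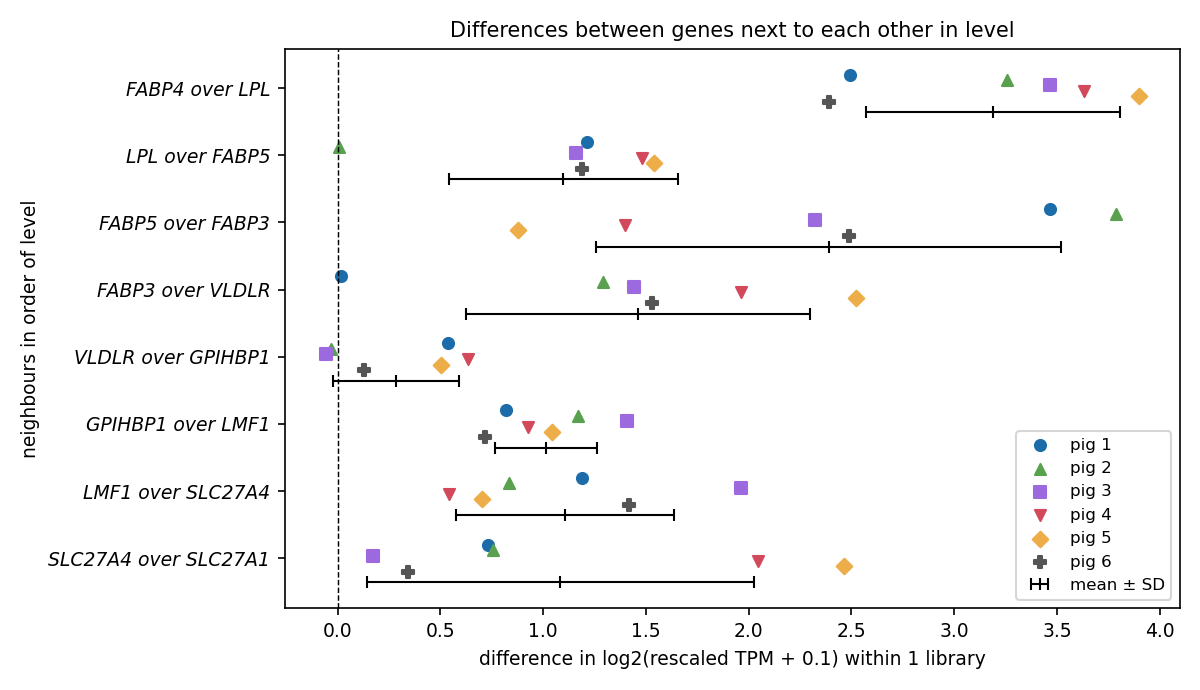
Difference in log2(rescaled TPM + 0.1) (x axis) between members next to each other in order of level (y axis), 1 point per pig, with the mean ± SD of 6 pigs in black and a dashed line at 0. VLDLR over GPIHBP1 is the 1 pair with points on both sides of the line, and LPL over FABP5 touches it in pig 2.

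The members differed in their spread between pigs. Over all 6 pigs, LPL, VLDLR, LMF1, SLC27A4 and GPIHBP1 had CVs of 0.101 to 0.250 in rescaled TPM, and FABP4, SLC27A1, FABP5 and FABP3 had 0.391 to 0.517. SLC27A1 owed its place to 2 libraries, since its CV without pigs 4 and 5 was 0.159, below GPIHBP1 (0.201) and SLC27A4 (0.261). The order also turned with the scaling, and SLC27A4 had a CV of 0.356 after median-centring, beside 0.352 for FABP5 and 0.306 for SLC27A1, and of 0.374 after quantile normalization, beside 0.243 for SLC27A1. The median CV of the 9 members in rescaled TPM was 0.250, beside 0.282 over the 8866 named nuclear genes. Without pigs 4 and 5 these medians were 0.201 and 0.161. In deposited TPM the median CV of the members was 0.662, and all 9 had CVs of 0.597 to 0.806.

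**Figure D4:**
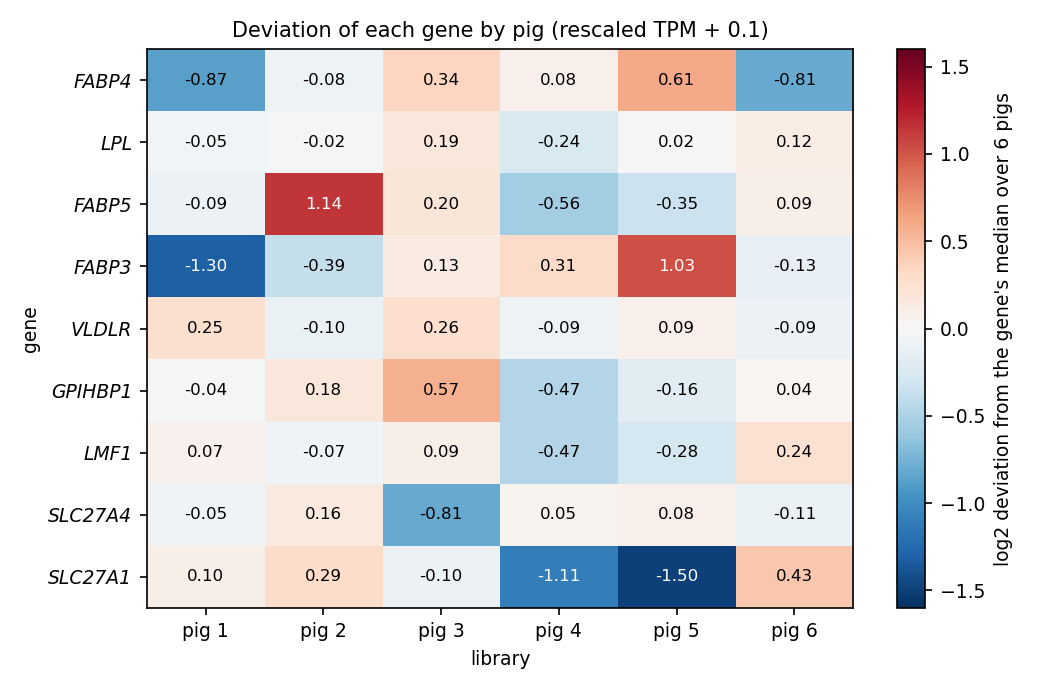
Deviation of each gene (rows) in each pig (columns) from its median over 6 pigs, in log2(rescaled TPM + 0.1), red above and blue below. FABP5 stands at 1.14 in pig 2, FABP3 runs from -1.30 in pig 1 to 1.03 in pig 5, and SLC27A1 is at -1.11 and -1.50 in pigs 4 and 5, while LPL stays between -0.24 and 0.19.

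Pigs 4 and 5 were read apart for this reason. In rescaled TPM, GPIHBP1, LMF1, FABP5 and SLC27A1 were lower in both than in the other 4 pigs, as were 50.1% of 12130 named nuclear genes. FABP3 was higher in both, as were 10.4% of genes. The remaining 4 members overlapped. The median named nuclear gene itself lay at -0.34 in pig 4 and -0.40 in pig 5 on this log2 scale and between -0.04 and 0.12 in the other pigs, so a member near these values moved with the bulk of genes. GPIHBP1 (-0.47 and -0.16), LMF1 (-0.47 and -0.28) and FABP5 (-0.56 and -0.35) were near them. SLC27A1 (-1.11 and -1.50) was further down. Above them lay FABP3 (0.31 and 1.03), FABP4 (0.08 and 0.61), SLC27A4 (0.05 and 0.08), VLDLR (-0.09 and 0.09) and LPL (-0.24 and 0.02). Which members stood apart depended on the scaling. SLC27A1 was below the other pigs in both under all 5 scalings tried, and FABP3 above them under 4 of 5, the exception being deposited TPM, where all 9 members were below, as were 98.2% of genes. After median-centring, 25.4% of genes were below and 30.9% above. LPL, VLDLR, FABP4 and SLC27A4 then lay above beside FABP3, and SLC27A1 was the 1 member below, since GPIHBP1, LMF1 and FABP5 overlapped with the other pigs. After quantile normalization, 25.8% of genes were below and 27.4% above. LPL, FABP5 and SLC27A1 then lay below, SLC27A4 and FABP3 lay above, and GPIHBP1 and LMF1 overlapped.

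Length moved with these values. Over the 11295 of 12130 genes (93.1%) with a RefSeq transcript, the median deviation in pigs 4 and 5 was -0.04 and 0.08 for transcripts under 1000 bases, the class of FABP3 (447 bases), FABP5 (682 bases) and FABP4 (871 bases). It was -0.14 and -0.05 for 1000 to 2000 bases, with GPIHBP1 and LMF1. For 2000 to 5000 bases, with LPL and VLDLR, it was -0.33 and -0.39. At 5000 bases or more, with SLC27A1 (5039 bases) and SLC27A4 (5646 bases), it was -0.52 and -0.68. SLC27A4 thus lay above the median of its length class in both pigs, and FABP5, at -0.56 and -0.35, below that of its own. GPIHBP1 (-0.47 and -0.16) and LMF1 (-0.47 and -0.28) also lay below that of their class. Medians also ran with G and C content, from -0.20 and -0.26 under 45% to -0.51 and -0.54 at 55% or more. GPIHBP1 and LMF1, in that last class, lay above its medians in both pigs. The part of length and G and C content in the members' levels was not tested.

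The rest of the pathway was read from 4 lists of other genes. Of the genes that control the lipase, 11 of 14 with a value were detected in all 6 pigs, beside 67.2% of all named nuclear genes. APOE, a ligand of lipoprotein receptors, had 4010 ± 960 rescaled TPM (SD, n = 6), HSPG2, a heparan sulfate proteoglycan of the vessel wall, 354 ± 210, and ANGPTL4, a fasting-induced inhibitor of the lipase, 166 ± 79.5. LPL exceeded ANGPTL4 6.74-fold in pig 2 to 27.4-fold in pig 5. The related endothelial lipase LIPG had 10.002 ± 1.65 rescaled TPM (SD, n = 6), and LPL exceeded it 133- to 283-fold. In pigs 4 and 5, 6 of 13 genes of this list with a mean of at least 1 rescaled TPM were below the others and 2 above, beside 50.1% and 10.4% of all genes.

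Of the lipoprotein and scavenger receptors, 5 of 6 with a value were detected in all 6 pigs, beside 67.2% of all named nuclear genes. SCARB2, a lysosomal relative of CD36, had 204 ± 45.4 rescaled TPM, SCARB1, which takes up cholesterol from high density lipoprotein, 74.5 ± 49.8, and the macrophage scavenger receptor MSR1 48.0 ± 18.7 (SD, n = 6 each). VLDLR thus lay between SCARB1 and MSR1 by mean, and all 3 overlapped over the pigs. SCARB1 was far lower in pigs 4 and 5 (17.5 and 20.3 rescaled TPM) than in the others (62.9 to 142).

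Among other transport proteins and acyl-CoA synthetases, 6 of 9 were detected in all 6 pigs, near the share of 67.2% over all named nuclear genes. The synthetases ACSL1, ACSL4 and ACSL5, which trap fatty acids as coenzyme A esters, had 280 ± 113, 143 ± 37.9 and 51.3 ± 10.4 rescaled TPM (SD, n = 6 each). ACSL1 exceeded SLC27A4 by 13.4- to 46.5-fold within libraries. SLC27A6, picked out here after its values were seen, had 35.97 ± 17.6 rescaled TPM (SD, n = 6) and was above SLC27A4 in 6 of 6 pigs, by 1.69- to 4.85-fold. SLC27A6 was therefore the most abundant of the 6 SLC27 genes measured, since SLC27A3, SLC27A5 and SLC27A2 had means of 7.28, 1.71 and 0.573 rescaled TPM.

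Of other lipid binding proteins, 8 of 11 with a value were detected in all 6 pigs, near the share of 67.2% over all named nuclear genes. DBI, which binds acyl-CoA, had 4507 ± 1517 rescaled TPM, CAV1, the coat protein of caveolae, 1228 ± 297, and ACBD3, a Golgi protein with an acyl-CoA binding domain, 195 ± 32.7 (SD, n = 6 each). FABP4 was the only gene of these lists and members with a mean above DBI. Of the other FABP genes with a value, FABP9 had the highest mean, 16.4 ± 16.6 rescaled TPM (SD, n = 6), with 48.9 in pig 2. PMP2, between FABP4 and FABP5 on the chromosome, had 6.29 ± 2.52 rescaled TPM (SD, n = 6). FABP7 had 5.86 ± 9.32, with 24.4 in pig 5, and FABP2 2.85 ± 2.07 (SD, n = 6 each). FABP6, the ileal form, was listed at 0 in all 6 pigs.

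**Figure D5:**
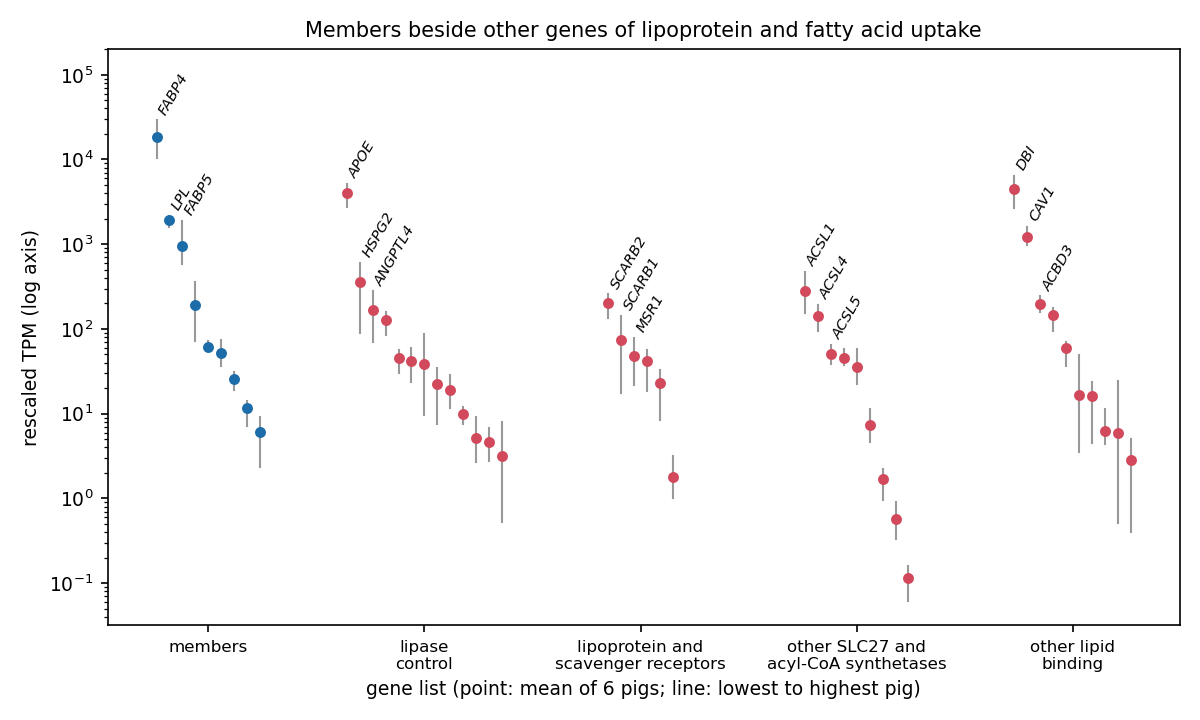
Mean of 6 pigs (points) and lowest to highest pig (grey lines) in rescaled TPM on a log axis for the 9 members (blue) and 4 lists of related genes (red), leaving out 2 genes with a pig at 0, with the 3 highest genes of each list named. FABP4 is highest at 18679, followed by DBI at 4507 and APOE at 4010.

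Genes of similar profile were found by the root mean square difference of log2(rescaled TPM + 0.1) over the 6 pigs, after each gene's mean was taken out. Among the members, LPL and LMF1 were closest, at 0.161, and FABP3 and FABP4 were nearest to each other, at 0.406. LPL was also the nearest member to GPIHBP1 (0.216) and VLDLR (0.162). Over the named nuclear genes with a mean of at least 10 rescaled TPM, LPL was closest to YWHAQ and NDUFB10 (0.0469 and 0.0505), GPIHBP1 to RTN4 and RILPL1 (0.0268 and 0.0694), LMF1 to ERGIC3 and SFXN4 (0.0303 and 0.0316), and VLDLR to NADK and SIRT5 (0.0646 and 0.0656). FABP4 was closest to TXNRD1 and SDR16C5 (0.219 and 0.220), and FABP3 to PLGRKT and SERINC1 (0.272 and 0.300), larger distances than those of the other members. FABP5 was closest to USP18 and EIF2AK2 (0.103 for each), and both also had their highest level in pig 2, at 33.8 and 194 rescaled TPM. SLC27A1 was closest to KLF3 and NEO1 (0.0278 and 0.0516), and SLC27A4 to AKAP17A and MAP2K1 (0.0742 and 0.0831). With 6 libraries and 8866 genes, small distances can occur without any link between genes, and the libraries' make-up is shared by all genes. Such distances were not confined to genes of narrow spread, since SLC27A1 had 0.0278 at a CV of 0.458.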

How the data were processed

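White adipose tissue of 6 pigs was profiled by RNA-seq on total RNA depleted of ribosomal RNA, with stranded libraries. The authors quantified genes with Kallisto 0.43.0 against Sscrofa11.1 and deposited TPM, 1 column per library. The sources used here do not state the annotation release behind the deposited TPM. TPM keep no read counts, so depth is unknown and precision comes from the spread between libraries. Symbols came from a name table by Ensembl ID (14857 of 25880 IDs, 57.4%). The 13 mitochondrially encoded genes were set aside, and each library was rescaled to 1000000 over 14844 named nuclear genes. The rat table was not used, since its IDs have no symbols in that table.

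Detection was over 0.1 TPM as deposited. Neighbouring members were compared by an exact sign-flip permutation test on log2(rescaled TPM + 0.1). No contrast between groups exists. Positions, transcripts and 31-base words came from RefSeq on Sscrofa11.1, matched by symbol for 9 of 9 members. Sequences upstream of the genes are not reported here. Analysis used Python 3.11.15, numpy 2.4.6 and pandas 2.3.3, and the scaling, CV, profile distance and sign-flip steps were tested on simulated data. Named genes were the members, the 2 or 3 highest of each pathway list, and the 2 nearest profiles of each member. Outside this rule, LIPG, SLC27A2, SLC27A3, SLC27A5, SLC27A6, FABP2, FABP6, FABP7, FABP9, PMP2, CDH5, ADIPOQ and DSP were named after their values were seen. The members and lists were chosen with earlier results of these data known. Alternatives were other thresholds, pseudocounts of 1 and 0.01, other scalings and leaving out each library.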

Additional observations from a re-analysis of the deposited data

Results flagged for a closer look

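Of 27 sets of 6 pig values examined (9 members on 2 scales, 8 differences between neighbours and the members' share), 3 had a library far from the others by Dixon's ratio, and chance alone marks about 1 set in 20. In deposited TPM, pigs 4 and 5 lay together below the others for all 9 members, which widens the range in Dixon's ratio. A single far library could hardly be marked there, so the rate of 1 in 20 does not hold for those 9 sets.

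FABP5 stood apart in pig 2, at 1868 rescaled TPM against 577 to 971 in the other 5 pigs. It did so under 4 of 5 scalings, deposited TPM being the exception. The log2 difference of LPL over FABP5, 0.0060 in pig 2, stood apart for the same values. SLC27A4 stood apart in pig 3, at 7.10 rescaled TPM against 11.6 to 14 in the others, under 2 of 5 scalings.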

How the results depend on the processing

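No paired analysis was possible because the series holds 1 group of pigs and the rat library numbers pair no animals. Deposited TPM moved the median CV of the members from 0.250 to 0.662, and counting all deposited TPM moved the share held by the members from 2.19% to 0.363%, both by construction, since unnamed and mitochondrially encoded genes then enter the total. Leaving out a library gave 1.99 to 2.36% for that share, 0.193 to 0.279 for the median CV, and 9 members detected each time. All 9 mean levels moved by more than 1 SD between rescaled and deposited TPM, while the differences between neighbours kept their direction under both other pseudocounts and without any 1 library. For pairs with the same gene higher in every pig, neither step could have turned the direction. The test of neighbours was not repeated without a library, because 5 libraries allow no p below 0.0625. The count of differing pairs was 7 under other pseudocounts, deposited TPM and quantile normalization. These settings keep the order of genes within a library. For pairs with the same gene higher in every pig the outcome was thus fixed in advance, and it adds no support. Leaving out pigs 4 and 5 together was added after the data were seen. Depth is unknown, so counting error could not be given for any member.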
